A study of Homo sapiens with 8 samples.

Results

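The CDK inhibitors and the retinoblastoma pocket proteins were followed as 10 genes, chosen by name: the CIP/KIP inhibitors CDKN1A, CDKN1B and CDKN1C, the INK4 inhibitors CDKN2A, CDKN2B, CDKN2C and CDKN2D, and the pocket protein genes RB1, RBL1 and RBL2. All 10 were among the 58051 genes counted, and 9 of them were among the 17671 genes with enough reads to be tested, since CDKN2B had no read in any library. The samples were 8 RNA-sequencing libraries of A375, a human melanoma cell line with an activating BRAF mutation. The cells came as 4 wild-type lines, WT1 to WT4, each grown from a single A375 cell, and each line gave 1 library after 12 hours in DMEM with 10% fetal bovine serum (FBS) and 1 after 12 hours in DMEM without FBS. All lines were first grown with 10% FBS, and no gene was targeted in them. Serum was withdrawn in the study to look for secreted factors behind the junctions that melanoma cells form when serum is removed. A line that descends from 1 cell stands for that clone, so the p-values measure the spread among these 4 clones.

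CDK inhibitors are small proteins that hold back the cyclin-dependent kinases of the G1 phase. The INK4 proteins bind CDK4 and CDK6, whereas the CIP/KIP proteins act mainly on CDK2 bound to cyclin E or cyclin A. The kinases they restrain phosphorylate the pocket proteins, which otherwise hold E2F factors on the promoters of S-phase genes: RB1 (pRB) with the activating E2Fs, and RBL1 (p107) and RBL2 (p130) with E2F4 and E2F5 and, together with the MuvB proteins, in the repressor complex DREAM. In textbook accounts RBL1 is a gene of cycling cells, itself switched on by E2F, and RBL2 is the pocket protein of resting cells.

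Library depth ran from 29759279 to 67101005 gene-assigned reads with serum and from 37847737 to 73341551 without. Reads aligned to several places made up 22.7% of the reads in the serum library of WT1 and 16.8% in that of WT2, against 5.73% to 10.1% in the other libraries. The deposited tables of WT4 carry another clone name than its labels, and WT4 was taken as labelled. In the check of the labelled cell type, the summed level of 7 melanocytic markers was 54.6 to 67.7 CPM with serum (CPM being the reads of a gene scaled to a library of 1000000) and 50.6 to 69.2 CPM without, almost all of it from MITF and S100B, of which MITF fell from 40.1 to 33.1 CPM (adjusted p = 0.0496). SOX10 was at 0 reads in all libraries, and TYR, PMEL, MLANA and DCT averaged at most 1.23 CPM in either condition. Of 11 markers of immune, endothelial, epithelial and fibroblast cells, the summed level was 21.3 to 30.2 CPM with serum and 22.6 to 32.1 CPM without, with KRT14 the highest, and PTPRC was at 0 in all 4 serum libraries. PDGFRA was the only one of these to pass the test without a line term, rising from 0.708 to 2.39 CPM. With the line entered as a block DCN also passed, rising from 1.04 to 1.94 CPM (adjusted p = 0.012). Of the melanocytic markers, S100B then passed as higher (adjusted p = 0.047) and DCT as lower (adjusted p = 0.025). Whether these markers have a part in the changes below was not tested.

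The promoters of RBL1 and RBL2 are shown because these relatives changed in opposite directions. Each line gives the 250 bases before the transcription start in RefSeq on GRCh38, read 5′ to 3′ on the strand of the gene, at chr20:37095998-37096247 (minus strand) for RBL1 and chr16:53434221-53434470 (plus strand) for the first of 2 RBL2 starts. Capitals mark matches to the E2F letters TTTGGCGC, TTTCCCGC, TTTGCCGC or TTTCGCGC on either strand.
RBL1: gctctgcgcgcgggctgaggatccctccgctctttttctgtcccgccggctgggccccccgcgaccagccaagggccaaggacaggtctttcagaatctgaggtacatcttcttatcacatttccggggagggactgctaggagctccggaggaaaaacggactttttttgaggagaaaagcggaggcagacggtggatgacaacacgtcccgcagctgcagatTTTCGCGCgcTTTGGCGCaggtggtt
RBL2: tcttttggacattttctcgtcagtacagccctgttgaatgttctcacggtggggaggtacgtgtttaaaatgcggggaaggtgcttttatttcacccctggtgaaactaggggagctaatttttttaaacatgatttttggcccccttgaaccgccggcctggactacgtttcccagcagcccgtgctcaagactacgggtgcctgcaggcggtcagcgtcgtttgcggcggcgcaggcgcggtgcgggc
The RBL1 window held 2 E2F matches, which began 26 and 16 bases before the start, and the RBL2 window held none. Matches to these letters occurred in 2.79% of all 35116 promoter windows of the same length. RefSeq promoters were found for 9 of the 10 genes, with 13 windows in all, and RBL1 was the only gene of the set with an E2F match in its window. CDKN1C had no entry, and for RB1 the table held only an alternative start inside the gene. The FOXO letters GTAAACA (2.98% of all windows) and the cell cycle homology letters TTTGAA (13.3% of all windows), each on either strand, were in none of the 13 windows. A GC box, GGGCGG on either strand, was in 42.6% of all windows and in those of CDKN1A, CDKN1B, CDKN2B and CDKN2D, in 1 of the 2 windows of CDKN2A and in 2 of the 3 windows of CDKN2C, with 4 matches in the CDKN1A window. A match is a string of letters and was not examined for binding.

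Serum withdrawal changed 4 of the 9 tested genes at an adjusted p under 0.05: CDKN1C and RBL2 rose, and RB1 and RBL1 fell. The test was edgeR's quasi-likelihood test of serum-free against serum over all 17671 genes, with Benjamini-Hochberg adjustment. Among all genes tested, 25.1% passed it, 11.1% as higher and 14.0% as lower without serum, and the median log2 fold change over all genes was 0.03. Upper-quartile scaling turned this balance over, with 2508 genes higher and 1843 lower against 1957 and 2477, but kept the same 4 members. With the line entered as a block, 5 of the 9 genes passed, CDKN1A being added as lower, against 45.7% of all genes. For 3 genes, RB1, RBL1 and RBL2, the 4 serum libraries and the 4 serum-free libraries did not overlap in CPM, as was so for 27.5% of all genes tested. Without WT4 the same 4 genes passed, with log2 fold changes of 0.84 for CDKN1C, 0.37 for RBL2, −0.44 for RB1 and −0.37 for RBL1. Without WT1, WT2 or WT3, 2 of the 4 passed each time, RB1 and RBL2. Over all genes tested, 1589 of 18104, 1975 of 17464 and 1873 of 18050 passed in these fits, and 5631 of 17756 without WT4. In bulk RNA a change within each cell cannot be told apart from a change in how many cells are in each phase of the cycle.

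**Figure D1:**
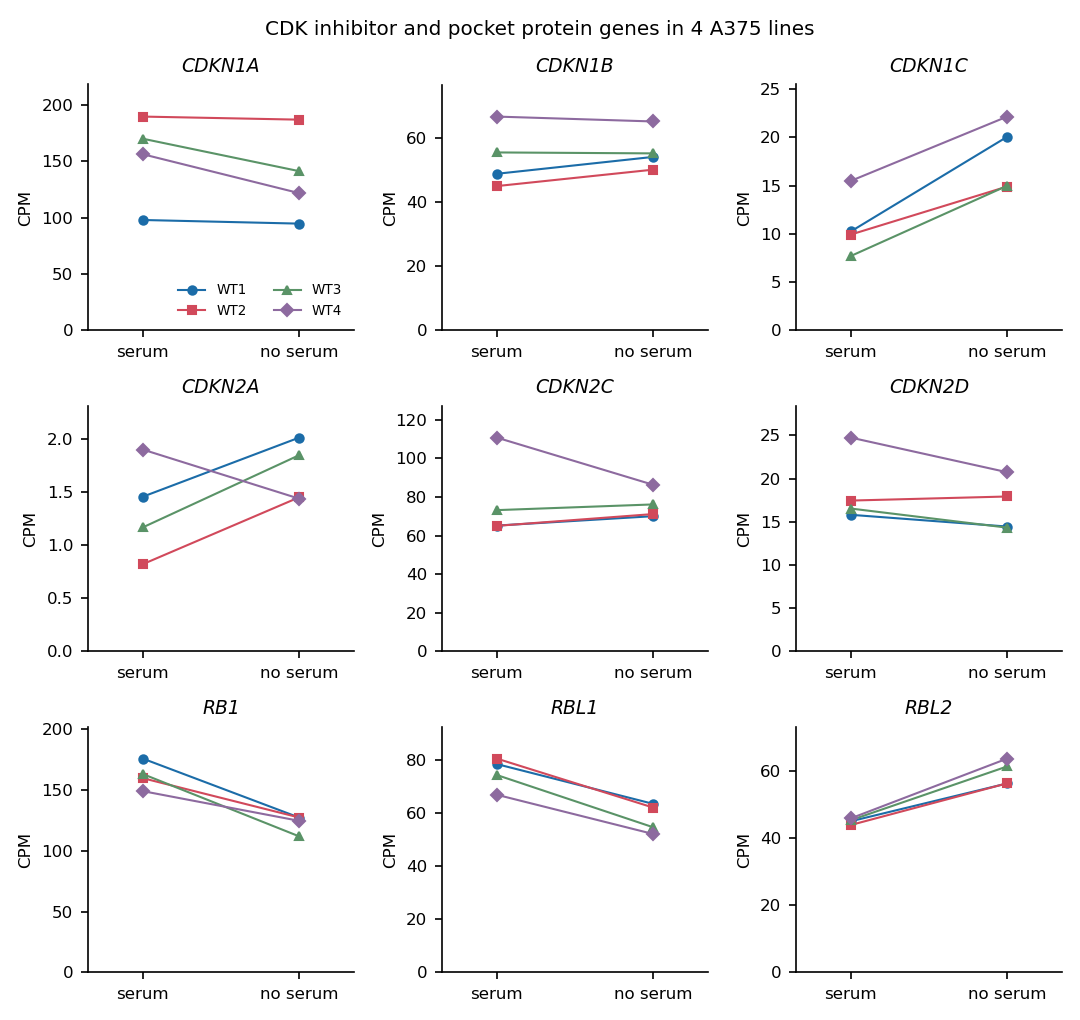
Level in CPM (vertical axis, starting at 0) of the 9 genes with reads, with and without serum; each line joins the 2 libraries of 1 A375 line. RB1 and RBL1 fell and RBL2 rose in every line without the conditions overlapping, CDKN1C rose in every line with overlap, and CDKN1A differed more between lines than between conditions.

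RB1 (ENSG00000139687, chr13:48303751-48481890, plus strand) encodes pRB, the pocket protein that binds the activating E2Fs. With serum it stood at 176, 159.9, 163 and 149 CPM in WT1 to WT4. Without serum it stood at 127, 127, 112 and 125 CPM in WT1 to WT4. Every serum-free library was below every serum library. The log2 fold change was −0.40 (SE 0.073, adjusted p = 0.0048), so that the level without serum was 0.758 times that with serum. Within lines the log2 difference ran from −0.54 in WT3 to −0.26 in WT4. LPAR6, a receptor gene transcribed from the other strand within the RB1 locus, had 95 to 193 reads with serum and 189 to 458 without, and none of the 6434 annotated exon bases of RB1 was shared with another counted gene.

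RBL1 (ENSG00000080839, chr20:36996349-37095997, minus strand), whose promoter carried the E2F letters above, encodes p107. With serum it stood at 78.6, 80.7, 74.5 and 67.02 CPM in WT1 to WT4. Without serum the values were 63.6, 62.2, 54.7 and 52.2 CPM, in the same order of lines. All serum-free libraries were again below all serum libraries. Its log2 fold change was −0.37 (SE 0.088, adjusted p = 0.014), a level of 0.774 times that with serum, and the 4 lines lay between −0.44 and −0.31. With 1 line left out of this fit, which has no line term, the adjusted p was 0.056 without WT1, 0.064 without WT2 and 0.081 without WT3. The log2 fold changes were then −0.39, −0.37 and −0.36. With all 4 lines and the line as a block, RBL1 passed (−0.37, SE 0.057, adjusted p = 9.7e-05).

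RBL2 (ENSG00000103479, chr16:53434471-53491648, plus strand) encodes p130, the pocket protein of resting cells. With serum it was nearly the same in all lines, at 44.97, 43.9, 45.3 and 45.8 CPM in WT1 to WT4. Without serum it stood at 56.2, 56.3, 61.3 and 63.6 CPM in WT1 to WT4. The conditions did not overlap. Its log2 fold change was 0.40 (SE 0.065, adjusted p = 0.0030), a level 1.32 times that with serum, and every line rose, by between 0.32 in WT1 and 0.47 in WT4 on the log2 scale. Of its 8110 annotated exon bases, 1330 were shared with AKTIP or an unnamed transcript, and how reads there were assigned depends on the strand setting.

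Per length, in RPKM (CPM divided by the kilobases of merged exons), RB1 was the most abundant pocket protein transcript in all 8 libraries. It made up 58.1% ± 1.09 (SD, n = 4 lines) of the summed RPKM of the 3 genes with serum and 52.8% ± 1.26 without. The share of RBL1 was 29.1% ± 1.25 with serum and 26.97% ± 1.87 without, and that of RBL2 was 12.8% ± 0.909 with serum and 20.3% ± 1.95 without. The RPKM ratio of RBL2 to RBL1 was 0.420, 0.399, 0.447 and 0.502 in WT1 to WT4 with serum, and 0.650, 0.665, 0.822 and 0.895 without. Every serum-free ratio was above every serum ratio. RBL2 stayed below RBL1 in every library by merged exons, but by longest transcript the ratio was 1.01 in WT3 and 1.10 in WT4 without serum, against 0.489 to 0.615 with serum. The ratio of RB1 to RBL1, which fell together, was 1.83 to 2.07 with serum and 1.86 to 2.21 without.

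**Figure D2:**
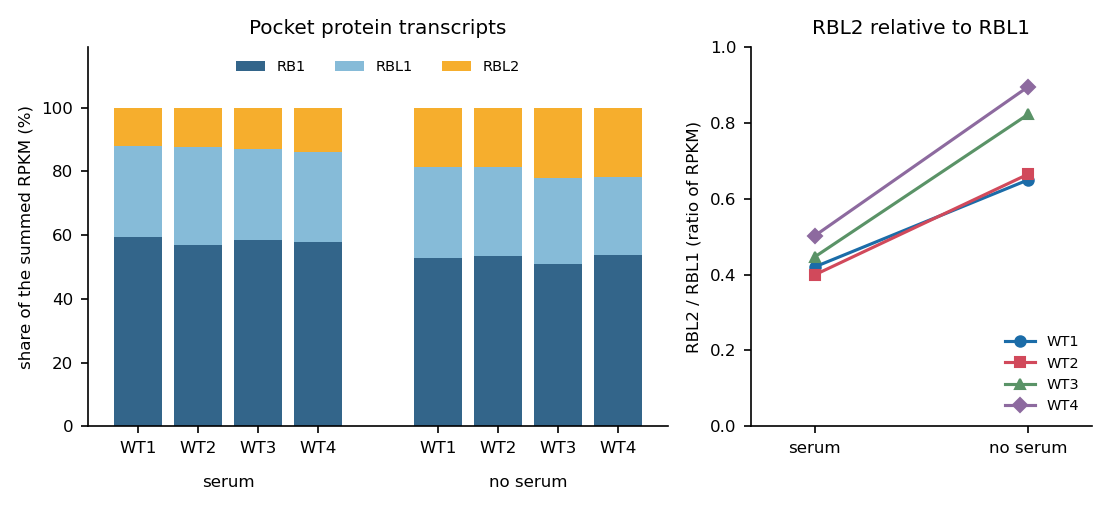
Left, share of each pocket protein gene in the summed RPKM of RB1, RBL1 and RBL2 (stacked bars, in percent) in each library; right, ratio of RBL2 to RBL1 RPKM with and without serum, 1 line per A375 line. The RBL2 share rose from 12.0% to 14.1% with serum to between 18.5% and 22.1% without, and the ratio rose in all 4 lines.

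CDKN1C (ENSG00000129757, chr11:2883218-2885775) encodes p57KIP2, the imprinted member of the CIP/KIP family. With serum it stood at 10.2, 9.93, 7.71 and 15.5 CPM in WT1 to WT4. Without serum it stood at 20.1, 14.9, 14.99 and 22.2 CPM in WT1 to WT4. It rose in every line, but the conditions overlapped, since WT4 with serum was above WT2 and WT3 without. The log2 fold change was 0.74 (SE 0.22, adjusted p = 0.034), a level 1.67 times that with serum, and the lines lay between 0.52 and 0.97. In this fit it was the largest fold among the genes of the set that passed. With the line as a block it was 0.75 (SE 0.098, adjusted p = 2.5e-05). With a GC correction added to the block it fell to 0.39, no larger than that of RBL2. It rested on 330 to 653 reads with serum and 584 to 1248 without. Leaving out any 1 of 5 single libraries took the adjusted p above 0.05: WT1, WT2 or WT3 with serum (0.093, 0.089 and 0.079) or WT1 or WT4 without (0.093 and 0.098). The same held on leaving out all of WT1, WT2 or WT3 (0.18, 0.091 and 0.098).

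CDKN1A (ENSG00000124762, chr6:36676463-36687332, plus strand) encodes p21, an inhibitor known for its induction under stress. It stood at 97.9, 189.6, 170.01 and 156 CPM in WT1 to WT4 with serum, and at 94.7, 187, 141 and 122 CPM without. Lines differed far more than conditions did, with both WT1 libraries lowest and both WT2 libraries highest. The log2 fold change of −0.17 (SE 0.25, adjusted p = 0.66) did not pass the test. Each line was lower without serum, WT1 and WT2 by 0.05 and 0.02 and WT3 and WT4 by 0.27 and 0.36 on the log2 scale, and with the line as a block the difference passed (−0.17, SE 0.064, adjusted p = 0.038).

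CDKN1B (ENSG00000111276, chr12:12717368-12722369, plus strand) encodes p27, which in many cells accumulates when growth factors are withdrawn, largely through slower breakdown of the protein. Its transcript stood at 48.7, 44.9, 55.4 and 66.5 CPM in WT1 to WT4 with serum, and at 54.0, 50.02, 55.1 and 65.0 CPM without. It was higher without serum in WT1 and WT2 and lower in WT3 and WT4. The log2 fold change was 0.06 (SE 0.13, adjusted p = 0.78), and no difference passed with the line as a block either (adjusted p = 0.40). Protein was not measured.

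The INK4 genes stood at very different levels. CDKN2A (ENSG00000147889, chr9:21967752-21995324, minus strand), whose alternative first exons give p16INK4a and p14ARF and which carries truncating mutations in A375, had 50 to 55 reads with serum and 72 to 111 without, a level of 0.821 to 1.90 CPM with serum and 1.44 to 2.01 CPM without. Gene counts do not separate its transcripts, and 593 of its 3885 exon bases were shared with the antisense gene CDKN2B-AS1. It was higher without serum in WT1, WT2 and WT3 and lower in WT4, and the log2 fold change of 0.35 (SE 0.28, adjusted p = 0.39) did not pass. CDKN2B (ENSG00000147883, chr9:22002903-22009313, minus strand), which encodes p15INK4b, had 0 reads in all 8 libraries. A count of 0 allows up to 3 reads, which at these depths is 0.039 to 0.11 CPM, and covers counting error only. In GENCODE v44 none of its 4000 exon bases was shared with another counted gene, but the annotation used for counting is not known. Why it had no reads was not tested.

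The neighbours of this locus on 9p21 were measured beside it. CDKN2B-AS1, the antisense RNA that spans CDKN2B, had 0 reads in every library with serum and in WT1 without, and 5, 1 and 1 reads in WT2, WT3 and WT4 without. MTAP, the methionine salvage gene on the far side of CDKN2A, stood at 217 ± 23.6 CPM (SD, n = 4) with serum and 187 ± 19.9 without (adjusted p = 0.14, and 0.019 with the line as a block). DMRTA1 stood at 5.49 ± 1.52 CPM with serum and 7.13 ± 2.55 without (adjusted p = 0.35, and 0.030 with the block). CDKN2B was thus without reads beside an abundantly read neighbour, MTAP.

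CDKN2C (ENSG00000123080, chr1:50960745-50974634, plus strand) encodes p18INK4c. It stood at 65.1, 65.0, 73.1 and 111 CPM in WT1 to WT4 with serum, and at 70.02, 71.1, 76.1 and 86.3 CPM without. WT4 was highest in both conditions and was the only line to be lower without serum. The log2 fold change was −0.05 (SE 0.17, adjusted p = 0.87). CDKN2D (ENSG00000129355, chr19:10566460-10568979, minus strand), which encodes p19INK4d, stood at 15.8, 17.5, 16.5 and 24.7 CPM with serum and 14.4, 17.9, 14.3 and 20.7 CPM without, in WT1 to WT4. Its log2 fold change was −0.14 (SE 0.17, adjusted p = 0.59), and only WT2 was higher without serum.

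**Figure D3:**
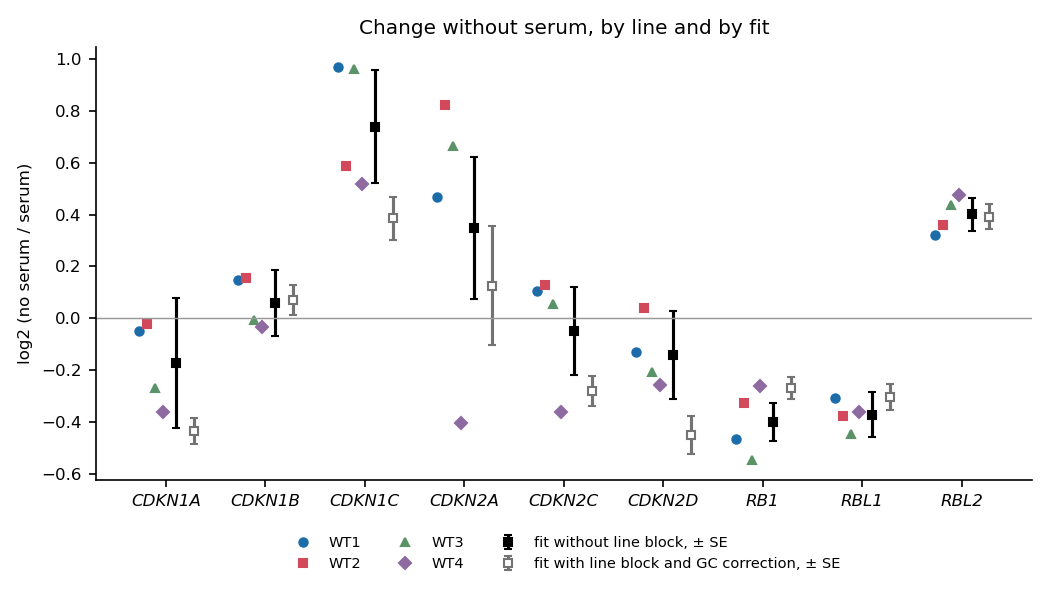
Log2 ratio of serum-free to serum level (vertical axis) for the 9 genes with reads: coloured points, the 4 lines; black squares, the fit without a line block ± SE; open squares, the fit with the line block and a correction for GC content ± SE. RBL2 stayed at 0.39 to 0.40 in both fits, whereas CDKN1C moved from 0.74 to 0.39 and CDKN1A, CDKN2C and CDKN2D moved lower under the correction.

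Base composition went with the change of serum across all genes, and the 10 genes differ in it widely. Over 17425 tested genes with a known sequence the Spearman correlation of the log2 fold change with the GC content of the longest transcript was 0.36, a description across genes that are not independent. The median log2 fold change was −0.19 for 3064 genes under 40% GC and 0.27 for 2330 genes at 60% GC or more. RB1 (37.1% GC) and RBL1 (40.01%) fell further than the genes of their composition and CDKN1C (63.8%) rose further, while RBL2 (43.1%) rose where such genes had a median of −0.08. When GC content was corrected for in the fit with the line block, 7 of the 9 genes passed, against 47.2% of all genes tested. RB1 (−0.27, adjusted p = 9.2e-05), RBL1 (−0.30, adjusted p = 0.00013) and CDKN1C (0.39, adjusted p = 0.0013) then had smaller changes, and RBL2 kept its own (0.39, adjusted p = 8.4e-06). CDKN1A (−0.43, adjusted p = 5.2e-06), CDKN2C (−0.28, adjusted p = 0.00088) and CDKN2D (−0.45, adjusted p = 0.00012), which lie between 58.1% and 61.2% GC, passed as lower, and CDKN1B (adjusted p = 0.34) and CDKN2A (adjusted p = 0.68) did not. The correction takes out the trend with GC, so lower here means lower relative to genes of like GC content. With the block alone CDKN2C was at −0.02 (adjusted p = 0.88) and CDKN2D at −0.14 (adjusted p = 0.19). For CDKN2C and CDKN2D the call therefore rested on whether GC content was corrected for, while CDKN1A passed with the block alone as well.

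**Figure D4:**
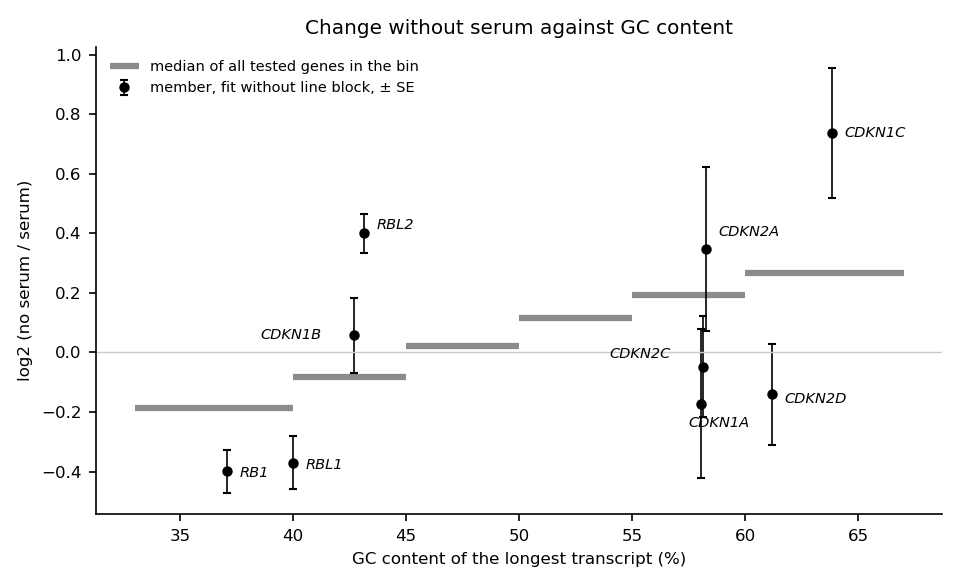
Log2 ratio of serum-free to serum level against the GC content of the longest transcript, in percent; black points, the 9 genes with reads in the fit without a line block ± SE; grey bars, the median of all tested genes in each GC range, the first and last ranges being open-ended. RBL2 lies well above the genes of its composition and CDKN2D, CDKN1A and CDKN2C lie below theirs.

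The 4 lines differed in the level of 5 inhibitor genes. By an F-test of the line terms in a model with condition, 5 of the 9 genes passed at an adjusted p under 0.05, against 22.9% of all genes tested. They were all 3 CIP/KIP genes and the INK4 genes CDKN2C and CDKN2D. CDKN1A showed the widest spread, with a mean log2 CPM over both conditions of 7.56 in WT2 and 6.59 in WT1 (adjusted p = 1.7e-05). CDKN1B, CDKN1C, CDKN2C and CDKN2D were all highest in WT4, with the highest and lowest lines 0.47, 0.79, 0.53 and 0.58 apart on the log2 scale (adjusted p = 0.0047, 0.0037, 0.0041 and 0.0044). Without WT4, CDKN1A and CDKN1C still passed (adjusted p = 9.3e-11 and 0.041), and CDKN1B, CDKN2C and CDKN2D did not (adjusted p = 0.055, 0.16 and 0.19). The lines lay 0.15 apart for RB1 (adjusted p = 0.49), 0.26 for RBL1 (adjusted p = 0.062, and 0.039 without a filter on low counts) and 0.12 for RBL2 (adjusted p = 0.61), and CDKN2A did not pass either (adjusted p = 0.45).

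In RPKM with serum, the order of the genes was CDKN1A (51.2 ± 13.2, SD over 4 lines), CDKN2C (26.0 ± 7.23), RB1 (25.2 ± 1.72), RBL1 (12.6 ± 1.01), CDKN2D (12.4 ± 2.74), CDKN1B (5.82 ± 1.02), RBL2 (5.55 ± 0.103), CDKN1C (4.37 ± 1.33) and CDKN2A (0.344 ± 0.118). The ranges over lines overlapped between neighbours in this order except between RB1 and RBL1, CDKN2D and CDKN1B, and CDKN1C and CDKN2A. The median over all tested genes was 2.74 RPKM. Without serum CDKN1A (45.4 ± 13.0), CDKN2C (25.1 ± 2.46) and RB1 (19.1 ± 1.152) kept their order, and no longer overlapped. CDKN2D (11.2 ± 2.04) stood above RBL1 (9.77 ± 0.933), with overlap. RBL2 (7.32 ± 0.457) and CDKN1C (7.27 ± 1.48) moved past CDKN1B (6.05 ± 0.689), each being above it within all 4 lines. The order depends in part on the assumed length: the merged annotated exons of CDKN1B sum to 9255 bases and its longest transcript has 4335 bases. By longest transcript CDKN1B stood at 12.9 RPKM without serum, above RBL2 (9.38) and CDKN1C (9.31), and with serum RB1 (33.997) stood above CDKN2C (27.03). Within the CIP/KIP family CDKN1A made up 82.8% ± 4.93 of the summed RPKM with serum and 76.4% ± 6.999 without, and CDKN1C 7.403% ± 2.64 and 13.0% ± 4.54. Within the INK4 family CDKN2C made up 66.9% ± 1.79 with serum and 68.5% ± 2.66 without.

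Many partners and targets of these proteins fell without serum, on lists whose counts stand beside 14.0% of all genes tested as lower and 11.1% as higher. The lists were chosen with earlier results of these data known, so their counts are a description only. Of the G1/S cyclins, their kinases and the phosphatase CDC25A, which activates CDK2, 6 of 9 tested genes fell and none rose, with a median log2 fold change of −0.57. CDK2, the main kinase held by the CIP/KIP proteins, stood at 86.8 to 101 CPM with serum and 40.4 to 46.9 without, a log2 fold change of −1.08 (SE 0.074, adjusted p = 3e-04), and CCNA2, its S-phase cyclin, fell by 0.62 (adjusted p = 0.0010). CCND1 and CDK6 had the highest CPM among them, which is not scaled to length. Their log2 fold changes were −0.57 (adjusted p = 0.056) and −0.43 (adjusted p = 0.10), and both passed with the line as a block. The E2F and DP factors, of which E2F6, E2F7 and E2F8 are not bound by pocket proteins, had 6 of 10 genes lower and 1 higher. TFDP1 fell by 0.69 (adjusted p = 8e-04) and E2F7, an atypical repressor E2F, by 0.50 (adjusted p = 0.0023), whereas TFDP2, the other DP partner, rose by 0.47 (adjusted p = 0.0021). E2F4, the usual partner of RBL1 and RBL2, stood at 216 ± 9.26 CPM with serum and 171 ± 8.42 without (adjusted p = 0.0054), and was named after its value was seen.

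Of the MuvB proteins and DYRK1A, the kinase that helps to assemble DREAM, 3 of 6 fell and none rose: RBBP4 by 0.51 (adjusted p = 0.0089), LIN9 by 0.35 (adjusted p = 0.023) and LIN54 by 0.22 (adjusted p = 0.049). With 1 library or line left out the count for this list ran from 0, without WT1, to 4. Of 25 E2F target genes 22 fell and none rose, with a median of −0.49. CDC25A, CCNE1, CCNE2, E2F1 and EZH2 of this list also stand on other lists. RRM2, a subunit of ribonucleotide reductase, fell from 707 ± 66.0 to 364 ± 37.7 CPM (SD, n = 4, adjusted p = 8e-04), and RRM1, its partner subunit, fell by 0.55 (adjusted p = 0.0013). The E2F letters shown above were in the window of 11 of the 20 E2F target genes with a RefSeq promoter, against 3.399% of all 27305 genes with one.

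**Figure D5:**
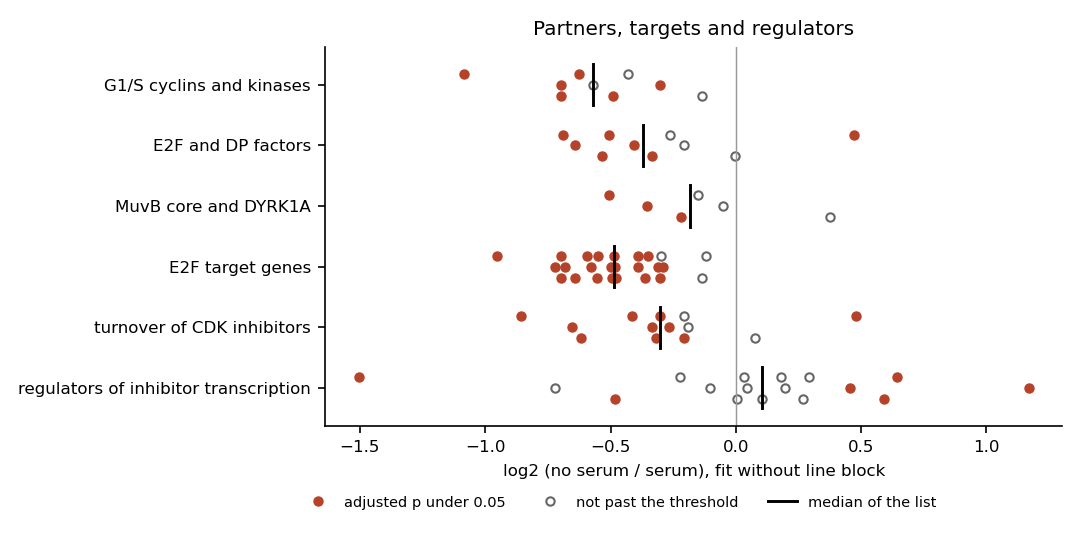
Log2 ratio of serum-free to serum level (horizontal axis, fit without a line block) of each tested gene in 6 lists of partners, targets and regulators; filled points passed an adjusted p under 0.05, open points did not, and the black bar is the median of the list. All filled points of the cyclin, MuvB and E2F target lists lie below 0, while the regulators lie on both sides.

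The ubiquitin ligases and cofactors that degrade CDK inhibitors had 9 of 13 genes lower and 1 higher, and 3 to 12 passed with 1 library or line left out, the fewest without WT2. SKP2, the F-box protein that marks p27 for breakdown, stood at 158 to 209 CPM with serum and 79.3 to 111 without, a log2 fold change of −0.86 (SE 0.12, adjusted p = 0.0019), and CDC20, an activator of the anaphase-promoting complex, fell by 0.65 (adjusted p = 0.0016). RNF123, the catalytic subunit of a second p27 ligase that acts in G1, rose by 0.48 (adjusted p = 0.016), though not past the threshold without the serum library of WT1 or of WT3 or without WT1, WT2 or WT3 as a whole, while its partner UBAC1 fell by 0.34 (adjusted p = 0.010).

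Factors that control transcription of the inhibitors moved both ways, 4 of 17 higher and 2 lower, where 11.1% and 14.0% of all genes did so. FOXO3, one of the FOXO factors that growth factor signalling keeps out of the nucleus, stood at 26.5 to 30.8 CPM with serum and 39.4 to 50.2 without (0.64, SE 0.088, adjusted p = 0.0018). FOXO4 (1.17, adjusted p = 0.0029), CBX7 (0.59) and SMAD3 (0.45) were the others to rise. ID1, an inhibitor of helix-loop-helix factors, fell by 1.504 (adjusted p = 0.0051) and EZH2, the Polycomb methyltransferase, by 0.48 (adjusted p = 0.0017). With the line as a block 8 rose and 4 fell, while 45.7% of all genes passed, and with GC correction added 4 rose and 6 fell. MYC, a repressor of CDKN1A and CDKN2B, stood at 29.8 ± 4.87 CPM with serum and 27.8 ± 5.57 without (adjusted p = 0.67). CBX7, SMAD3, LIN54, UBAC1, CCND1, CDK6 and MYC were named after their values were seen.

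For the 4 genes that passed, the protein-coding genes with the most similar log2 CPM over the 8 libraries were looked up, among those averaging at least 100 reads. They were NRG2, RAB43 and MBLAC1 for CDKN1C (Pearson r between 0.988 and 0.993), ZNF714 and MICU2 for RB1 (0.992 each), PIGW, KBTBD6 and EXOSC8 for RBL1 (0.988 to 0.993), and KLHL24, BBS2 and AKAP12 for RBL2 (0.994 to 0.997). KLHL24, BBS2 and AKAP12 rose without serum by 1.42, 0.90 and 2.40 on the log2 scale, more than RBL2 did. The 8 points of each correlation share the contrast of conditions and the 4 lines, so that these are the genes most alike in pattern and no more.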

How the data were processed

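Total RNA of 8 A375 cultures, 4 lines each with and without serum for 12 hours, was depleted of ribosomal RNA and sequenced in read pairs. The deposited values are raw read counts per Ensembl gene, made by the authors with HTSeq. According to the submitters' processing notes, reads were trimmed with cutadapt and aligned with TopHat2 2.0.11 to GRCh38. The paper's methods name hg19. Which annotation release was counted, and with what strand setting, is not given in the sources used here. Reads that fell on more than 1 gene were not assigned (8.23% to 11.5% per library). Groups and line numbers came from the sample titles.

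From the counts, 17671 genes were kept by filterByExpr, scaled by TMM and tested in edgeR 4.0.16 (R 4.3.3) for serum-free against serum. The main fit had no line term, as the study's expression methods name no pairing. The paper's statistics section does name paired t-tests for cell culture work, and the fit with the line block is the paired one here. SE is the log2 fold change divided by the square root of F. CPM used TMM-scaled totals. Exon lengths and GC came from GENCODE v44 by gene ID, symbols for 55604 of 58051 IDs, and coordinates and promoters from RefSeq on GRCh38.p14. Line numbers pair the samples because each number is 1 cell line, and deviations of the same line correlated at 0.40 to 0.60 against at most 0.13 between lines. Alternatives were the line block, GC correction, DESeq2, limma voom, other scalings and filters, protein-coding genes only, and leaving out each library or line. The fits were also run on simulated counts, and the outcome is not reported here. The named genes of each list were the 2 smallest p-values in each direction and all 9p21 neighbours, and for each gene of the set that passed, the 3 most similar genes. Some genes that this rule names are not reported here. The members and lists were chosen with earlier results of these data known.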

Additional observations from a re-analysis of the deposited data

Results flagged for a closer look

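CDKN2C changed within WT4 by −0.36 on the log2 scale, whereas the other 3 lines lay between 0.06 and 0.13. The RPKM ratio of RB1 to RBL1 without serum was 2.21 in WT4 and between 1.86 and 1.90 in the other lines. In both cases 1 line stood apart from the other 3 by Dixon's criterion, which was applied to 35 groups of 4 values and by chance picks about 1 group in 20. Whether lines differ in their response to serum was not tested, since each line has 1 library per condition.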

How the results depend on the processing

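RB1 and RBL2 kept their direction and passed the test in each of the 12 fits that left out 1 library or 1 line, and RBL1 in 9 and CDKN1C in 4 of them. The exceptions, like the lower counts that follow, come from fits with fewer samples. With 1 library or line left out, 1589 to 6128 genes passed, 2 to 4 members, 0 to 4 genes of the MuvB list and 3 to 12 of the turnover list. Between lines, 2 to 5 members and 2822 to 3296 genes passed.

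Adding the line block, which takes differences between lines out of the error, raised the count to 8067 genes, and to 12 for the regulators. Adding GC correction to the block gave 8333 genes, 2849 higher and 5484 lower, against 4106 and 3961 with the block alone, and gave 7 members and 10 regulators. In the block fit the median log2 fold change of all genes was 0.04, and −0.06 with GC correction. Chosen after seeing the data, a fit of WT3 and WT4 alone, whose serum libraries had fewer reads aligned to several places, called 14 genes, 0 members and 0 genes of each of the 6 lists. With the block added, the same lines gave 4300 genes, 5 members (CDKN1A, CDKN1C, RB1, RBL1 and RBL2), 23 E2F targets and 1 gene of the MuvB list. With all 4 lines, the block changed no other call of a member than that of CDKN1A.

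Some inhibitors with small changes turned direction. CDKN2C ran from −0.13 to 0.16 on the log2 scale with 1 library or line left out, and was 0.018 with upper-quartile scaling. CDKN2D ran from −0.26 to 0.022, the last without the serum library of WT4, and CDKN1B from −0.023 to 0.17, with −0.021 in WT3 and WT4 alone both without and with the block. Depth limits CDKN2A, with at most 111 reads in a library.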
